A study of Mus musculus with 4 samples.

Results

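The autosomal histone deacetylase genes are Hdac1, Hdac2, Hdac3, Hdac4, Hdac5, Hdac7, Hdac9, Hdac10 and Hdac11, 9 genes of the 28883 for which the methylation data list any promoter, UTR, exon or intron. They were taken by name. Their entries are the levels listed under each gene's Ensembl identifier, together with every CpG island and island shore that overlaps the gene in GENCODE vM21 on GRCm38. This gave 52 regions in any library, and 51 of them had a level in all 4 libraries, out of 106689 such regions in all. Of the 45 possible gene entries (promoter, 5′ UTR, exon, intron and 3′ UTR of 9 genes) 32 are listed, and Hdac5 alone has all 5. The exception is an island inside Hdac5 (chr11:102206519-102206976), which is listed only in the siDNMT1 uninduced library, at a methylation level of 0.886. Hdac6 and Hdac8 are X-linked and are described only among related genes.

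The cells are C3H10T1/2, a mouse line that behaves as mesenchymal stem cells (MSCs). They were transfected for 48 h with a control siRNA (NC) or with siRNA against DNMT1 (siDNMT1), the enzyme that copies DNA methylation onto new strands after replication. They were then left uninduced, or kept for 3 days in osteoblast (OB) medium with L-ascorbic acid, β-glycerophosphate and dexamethasone. The labels list 0 days of induction for the uninduced cells and name no matched time in plain medium. In every OB comparison, the medium and the time after transfection therefore cannot be told apart. All groups are 1 cell line, and each of the 4 groups (NC uninduced, siDNMT1 uninduced, NC OB, siDNMT1 OB) is 1 bisulfite library. No difference below therefore has a replicate error, none was tested, and the effect of a condition and the deviation of a single library cannot be told apart. A level averages over all cells of a culture, so a shift in the cells present and a change within cells cannot be told apart either. A methylation level is the fraction of methylated CpG cytosines in a region, from 0 to 1. The values come without read counts, so the depth behind them is unknown. A region is said to have fallen or risen where its level differed by at least 0.1. The knockdown of DNMT1 and the identity of the cells could not be checked in methylation levels.

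Histone deacetylases remove acetyl groups from lysines of histones and other proteins, and most act in corepressor complexes at chromatin. Class I enzymes (Hdac1, Hdac2, Hdac3) are the catalytic subunits of the Sin3, NuRD, CoREST and NCoR/SMRT complexes. Class IIa enzymes (Hdac4, Hdac5, Hdac7, Hdac9) have weak activity of their own, bind MEF2 transcription factors and move between nucleus and cytoplasm, and in the skeleton Hdac4 is known for restraining chondrocyte hypertrophy. Hdac10 (class IIb) acts on polyamines, and Hdac11 is the only class IV member. In mammals, starts of widely used genes usually lie in unmethylated CpG islands, whereas gene bodies are usually methylated.

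The sequences behind the main contrasts are shown on the gene's strand, 5′ to 3′, with each CpG in capitals, read from GRCm38. The first group is the 250 bases before RefSeq starts (GRCm38.p6), which 6 of the 9 genes have. Over all 32851 such windows the median is 6 CpG, and 92.1% hold at least 1. The window of Hdac4, the gene with the lowest promoter level, starts from an inner promoter (chr1:92180342-92180591, minus strand), holds 23 CpG and lies wholly in a listed island. Hdac7, with the highest promoter level, has an outer window with 6 CpG and no island (chr15:97844503-97844752, minus strand) and an inner window with 21 CpG (chr15:97831768-97832017, minus strand), 96 bases of which are in an island. The windows of Hdac9 are nearly free of CpG, with 0 at the outermost start (chr12:34917096-34917345, minus strand) and 2 at an inner one (chr12:34528890-34529139, minus strand). The start of Hdac5 (chr11:102230173-102230422, minus strand) has 12.
Hdac4 inner start: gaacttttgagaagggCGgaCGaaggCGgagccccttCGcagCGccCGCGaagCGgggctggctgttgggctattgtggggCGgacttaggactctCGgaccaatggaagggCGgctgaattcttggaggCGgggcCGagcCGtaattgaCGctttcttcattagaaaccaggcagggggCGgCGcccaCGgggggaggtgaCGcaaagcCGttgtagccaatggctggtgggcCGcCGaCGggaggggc
Hdac7 outer start: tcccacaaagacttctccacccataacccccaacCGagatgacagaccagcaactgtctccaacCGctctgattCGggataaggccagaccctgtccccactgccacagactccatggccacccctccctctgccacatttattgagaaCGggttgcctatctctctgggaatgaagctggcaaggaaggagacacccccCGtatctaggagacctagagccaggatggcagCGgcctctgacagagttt
Hdac7 inner start: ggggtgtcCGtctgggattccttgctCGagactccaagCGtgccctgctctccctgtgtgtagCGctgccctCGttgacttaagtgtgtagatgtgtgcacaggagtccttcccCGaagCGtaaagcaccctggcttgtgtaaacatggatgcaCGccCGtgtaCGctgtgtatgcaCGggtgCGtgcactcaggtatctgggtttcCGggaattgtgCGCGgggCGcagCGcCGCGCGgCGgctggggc
Hdac9 outermost start: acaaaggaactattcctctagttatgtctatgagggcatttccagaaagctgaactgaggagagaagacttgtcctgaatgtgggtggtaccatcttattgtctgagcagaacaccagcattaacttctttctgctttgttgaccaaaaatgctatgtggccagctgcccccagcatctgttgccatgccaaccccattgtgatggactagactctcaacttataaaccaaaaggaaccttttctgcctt
Hdac9 inner start: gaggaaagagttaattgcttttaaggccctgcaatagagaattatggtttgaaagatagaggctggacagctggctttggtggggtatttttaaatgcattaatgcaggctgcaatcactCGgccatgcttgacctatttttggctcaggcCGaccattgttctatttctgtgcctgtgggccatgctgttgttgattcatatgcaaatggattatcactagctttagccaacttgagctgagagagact
Hdac5 start: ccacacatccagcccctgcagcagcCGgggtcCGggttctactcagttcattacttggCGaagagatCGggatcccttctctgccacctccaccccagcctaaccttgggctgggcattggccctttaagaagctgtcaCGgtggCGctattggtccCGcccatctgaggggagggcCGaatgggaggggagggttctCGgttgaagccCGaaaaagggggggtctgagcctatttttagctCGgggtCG

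The second group lies inside genes. The Hdac5 sequence (chr11:102224956-102225255, minus strand) is the 3′ end of its first intron. It has 9 CpG in 300 bases, and it crosses the edge between a short inner island, to which the last 84 bases belong, and the shore whose methylation differed most on OB induction among the deacetylase genes. The Hdac11 sequence (chr6:91156848-91157055, plus strand) is the first-intron part of its start island, with 18 CpG in 208 bases, an island that was partly methylated in every library.
Hdac5 first intron: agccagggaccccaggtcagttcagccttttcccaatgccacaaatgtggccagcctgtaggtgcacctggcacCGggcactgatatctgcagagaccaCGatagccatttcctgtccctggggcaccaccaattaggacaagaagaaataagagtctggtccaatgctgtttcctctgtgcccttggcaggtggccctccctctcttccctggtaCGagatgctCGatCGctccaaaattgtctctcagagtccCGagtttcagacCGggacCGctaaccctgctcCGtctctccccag
Hdac11 start island: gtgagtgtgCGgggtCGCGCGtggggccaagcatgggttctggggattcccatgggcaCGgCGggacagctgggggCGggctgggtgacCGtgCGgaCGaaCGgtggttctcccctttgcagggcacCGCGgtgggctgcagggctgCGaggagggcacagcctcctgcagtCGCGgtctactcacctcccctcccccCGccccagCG

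In most deacetylase genes the listed island that holds an annotated start had low levels. Of the 9 listed islands that hold an annotated start, 1 per gene, 7 had levels under 0.06 in all 4 libraries. The Hdac2 island (chr10:36974140-36975258) read 0.0194 in NC uninduced, 0.0228 in siDNMT1 uninduced, 0.0176 in NC OB and 0.0187 in siDNMT1 OB. The Hdac1 island (chr4:129542298-129542952) read 0.0383, 0.0336, 0.0297 and 0.0232 in the same order, which is kept below. The start island of Hdac5 (chr11:102229652-102230283) lay between 0.0136 and 0.0213, and that of Hdac10 (chr15:89128457-89128782) between 0.0248 and 0.0353. These levels are near the median of all 14095 islands, 0.0300.

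Hdac11 and Hdac3 departed from that pattern, and Hdac3 is described below. The start island of Hdac11 (chr6:91156623-91157055), which holds 37 CpG in 433 bases, read 0.298, 0.260, 0.217 and 0.247, above 72.8% of all islands. The promoter, 5′ UTR and exon entries of Hdac11 carry exactly the same 4 values as the island, so its 4 entries are 1 measurement. The NC uninduced library was the highest and the NC OB library the lowest.

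Among the 7 low islands, those of 3 class IIa genes lie at inner starts. The Hdac4 island (chr1:92179621-92181074) lies 14625 to 16078 bases inside the outermost start, holds 179 CpG and read 0.0212, 0.0160, 0.0169 and 0.0153. The Hdac7 island (chr15:97830985-97831863), 12639 to 13517 bases inside, read 0.0270, 0.0223, 0.00890 and 0.0163. The Hdac9 island (chr12:34906698-34907447), 9648 to 10397 bases inside, holds 108 CpG and read 0.0562, 0.0571, 0.0571 and 0.0432. The only annotated start in it is that of a retained-intron transcript. The 2 kb before the protein-coding starts of Hdac9 meet no listed island. In these large genes the upstream 2 kb of the outermost start meet no listed island and hold 20 CpG in Hdac4, 30 in Hdac7 and 22 in Hdac9, against a median of 38 over 20128 promoters.

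**Figure D1:**
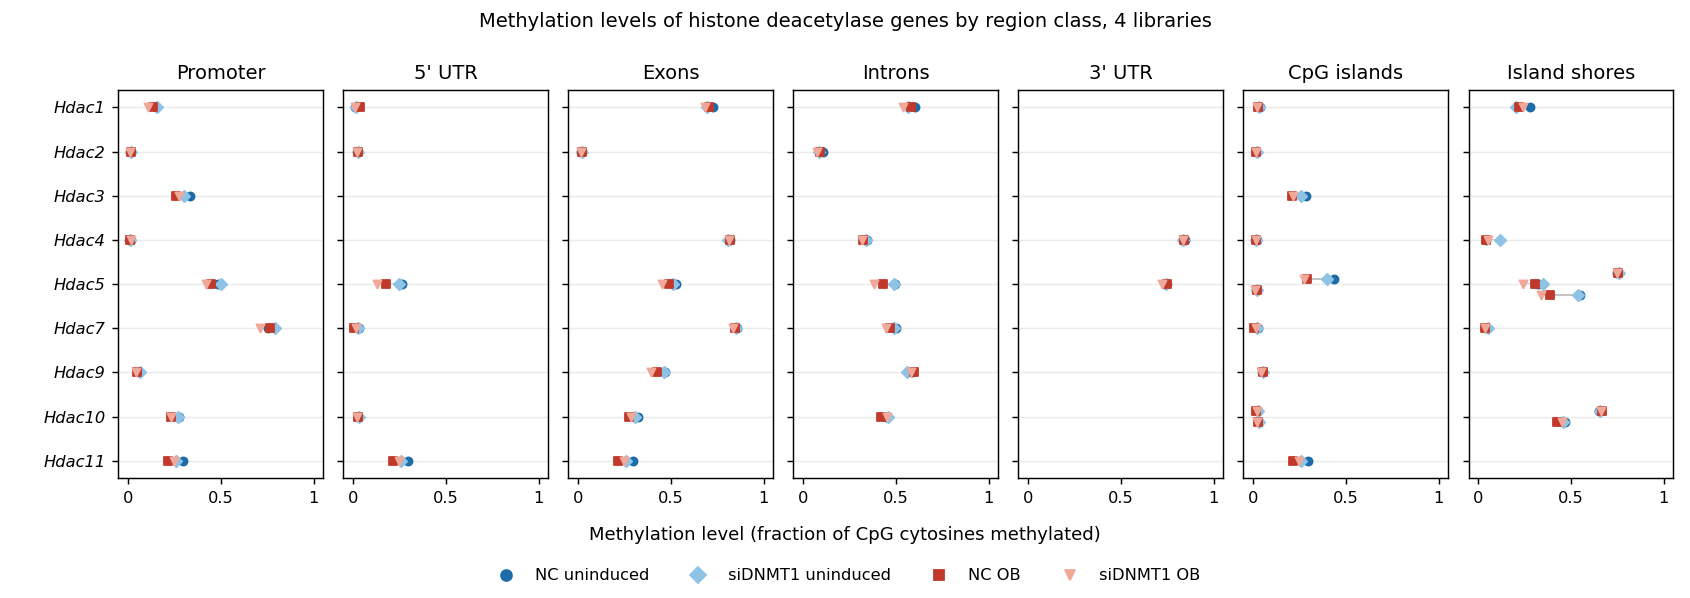
Each row is a gene and each panel a class of region, with the methylation level (0 to 1) on the x axis and 1 marker per library, where markers of the same region are joined by a grey line. Start islands and 5′ UTRs sit near 0 for most genes, exons of Hdac4 and Hdac7 lie above 0.8, and the 4 libraries spread widest at the first-intron shore (by 0.207) and the inner island (by 0.161) of Hdac5.

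Promoter levels ran from the bottom to the top of the scale across the 9 genes. The promoters of Hdac4 (mean of the 4 libraries 0.0162) and Hdac2 (0.0164) were lowest and differed by less than the spread of either gene's libraries. Next came Hdac9 (0.0555) and Hdac1 (0.139), neither overlapping a neighbour in the order. Hdac10 (0.254), Hdac11 (0.256) and Hdac3 (0.294) overlapped each other, and Hdac5 (0.465) and Hdac7 (0.755) were above all of them in every library. Over all 20152 promoters the median was 0.180, and 94.1% lay below Hdac7. Across 20128 promoters, levels were lower where the upstream 2 kb held more CpG (Spearman's rho -0.338 across genes, which are not independent).

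The promoter of Hdac7 and its 5′ UTR stood at opposite ends. The promoter read 0.753, 0.791, 0.768 and 0.709, while the 5′ UTR read 0.0337, 0.0281, 0.00877 and 0.0181, within 0.01 of the inner island in every library. The authors define a promoter as the 2 kb before a start, and which start each gene entry used is not given. Of 551 promoters in the series whose 4 levels equal those of 1 island, the island lies in the 2 kb before the outermost GENCODE start in 504 and before some start of the gene in all 551. For Hdac4, Hdac7 and Hdac9 the promoter entry may thus refer to an outer or an inner start. The level of the Hdac9 promoter, 0.0555 on average, was close to that of the inner island, 0.0534, and the levels of Hdac4 were 0.0162 and 0.0173.

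Hdac3 (chr18:37935844-37955016) is listed only by its promoter and 1 island. The promoter read 0.338, 0.305, 0.258 and 0.276. The island, which holds annotated starts of Hdac3 and also overlaps the neighbouring gene Rell2, read 0.288, 0.258, 0.213 and 0.214. Its mean level was above 72.1% of all islands. In the promoter and in the island, each OB library was lower than each uninduced library. The upstream 2 kb of Hdac3 is the richest in CpG of the family, with 109.

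Gene bodies were methylated to very different degrees. Averaged over the libraries, exons of Hdac7 (chr15:97792664-97844502, 0.835 to 0.854) and Hdac4 (chr1:91928779-92195699, 0.808 to 0.820) were above 97.7% and 95.6% of all exon entries. Exons of Hdac1 (chr4:129516104-129542713) read 0.728, 0.694, 0.707 and 0.684, those of Hdac9 0.469, 0.465, 0.426 and 0.395, and those of Hdac10 (chr15:89123307-89128700) 0.325, 0.311, 0.279 and 0.288. Hdac2 (chr10:36974544-37001889) was the exception, since its exons stayed between 0.0172 and 0.0249 and its introns between 0.0787 and 0.110. Hdac11 (chr6:91156665-91174692) has no body entry apart from the exon entry that equals its start island. The 3′ UTR was listed for Hdac4 (0.834 to 0.843) and Hdac5 (0.721 to 0.748) only. The introns of Hdac7 read 0.502, 0.492, 0.471 and 0.447 and those of Hdac10 0.447, 0.459, 0.421 and 0.454. Introns of the 6 listed genes other than Hdac2 lay between 0.321 and 0.603. Shore levels ranged as widely, with 0.0405 to 0.0569 inside Hdac7 (chr15:97828984-97830983) and higher levels in Hdac10, of 0.654 to 0.668 (chr15:89123449-89125449) and 0.424 to 0.466 (chr15:89126456-89128455). The island across the 3′ end of Hdac10 (chr15:89122929-89123448), which also overlaps Tubgcp6, lay between 0.0200 and 0.0259.

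The siRNA comparison sets methylation at these genes in siDNMT1 cells beside that in NC cells. In uninduced cells no deacetylase entry differed by 0.1 or more between siDNMT1 and NC, against 1.46% of all 106689 entries. Of the 51 entries 31 were lower with siDNMT1 and 20 higher, where 54.6% of all entries were lower. Their median difference was -0.00465, against -0.00115 over all entries. With each library centred on its median over all entries of the same class, the median of the 51 was -0.00123. No centred median over all entries is given here, so this value has no background beside it. The largest differences lay at shores. The shore across the 3′ end of Hdac1 (chr4:129514563-129516563), which also overlaps Marcksl1, read 0.280 in NC and 0.206 in siDNMT1, a difference of -0.0733. The shore inside Hdac4 (chr1:92177620-92179619) was higher, at 0.118 in siDNMT1 against 0.0428 in NC, a difference of 0.0755. Its 2 OB libraries, at 0.0432 and 0.0541, lay near the NC value. The body entries of Hdac1, a subunit of several corepressors, were lower with siDNMT1 in both comparisons, with differences of -0.0341 uninduced and -0.0228 in OB for exons and of -0.0397 and -0.0434 for introns.

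In OB cells no deacetylase entry passed 0.1 either, against 2.03% of all entries. With siDNMT1 34 entries were lower and 17 higher, a share close to the 65.7% of all entries that were lower. The median difference was -0.00651, against -0.00511 over all entries, and it became 0.00162 once each library was centred on its median over all entries of the same class. Hdac5 gave much of the lower side, since all 10 of its entries were lower with siDNMT1. Its shore downstream of the inner island read 0.308 in NC OB and 0.245 in siDNMT1 OB (-0.0625), and its introns 0.429 and 0.385 (-0.0438). The Hdac7 promoter read 0.768 and 0.709 (-0.0582). Hdac11 and the exons and introns of Hdac10 were higher with siDNMT1, by 0.0300, 0.00908 and 0.0326.

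The 2 siRNA comparisons use separate libraries and can be set side by side. The difference had opposite signs at 31 of the 51 entries, both were lower at 17 and both higher at 3. The signs matched at 39.2% of deacetylase entries and at 56.2% of all entries. With entries of identical values counted once, 27 of 47 were opposite. Pearson's r between the 2 differences was -0.269 across the entries, -0.150 with identical values counted once and 0.0429 over all entries. Many differences are small, entries of 1 gene overlap, and the depth is unknown. The Hdac7 promoter (0.0380 uninduced, -0.0582 in OB), Hdac11 (-0.0377 and 0.0300) and the promoter of Hdac3 (-0.0329 and 0.0178) were among those that turned.

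**Figure D2:**
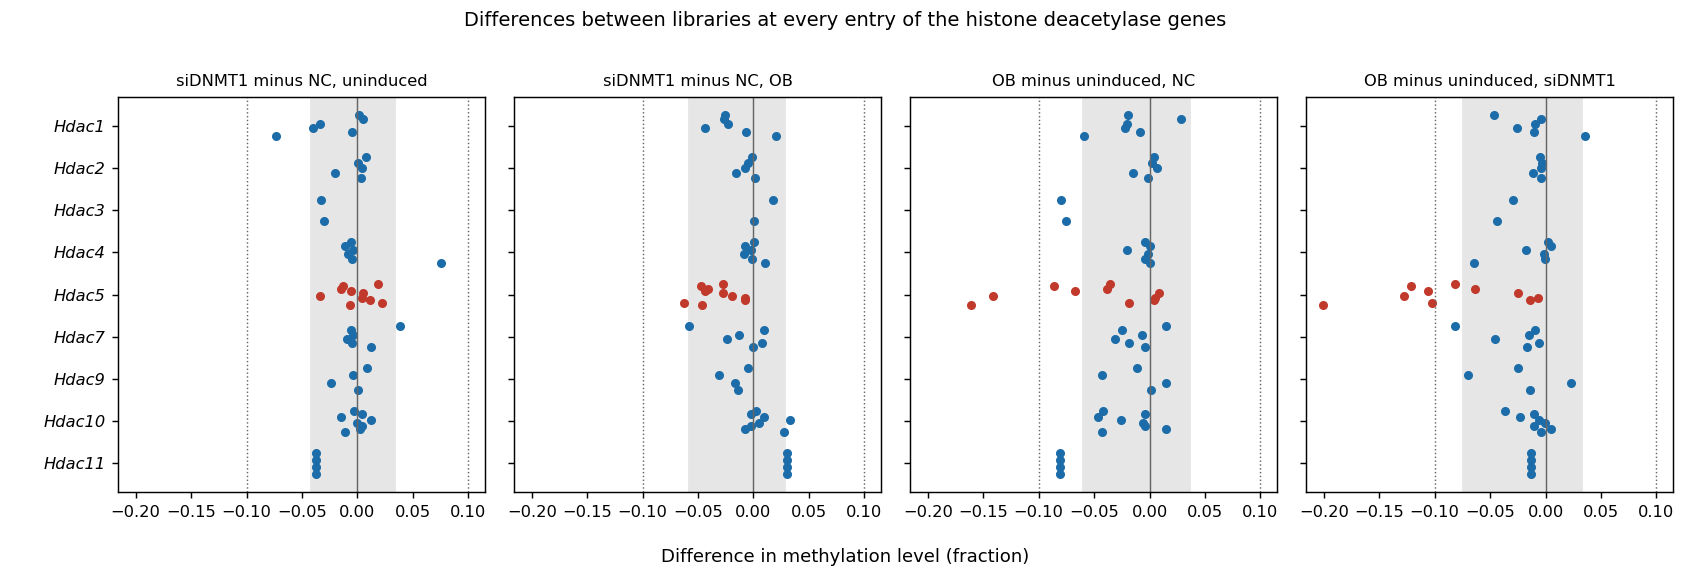
Each point is 1 entry with its difference in methylation level on the x axis, in 4 panels for the 2 siRNA and the 2 OB comparisons, and the grey band spans the 5th to 95th percentile of all entries. Dotted lines mark a difference of 0.1 either way. Hdac5 (red) has the only entries past the lines, all of them in the OB comparisons.

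For Hdac9 (ENSMUSG00000004698, chr12:34047580-34917095), a deacetylase the study followed up, none of 4 entries passed 0.1 in any comparison. Of all entries 1.46% passed 0.1 with siDNMT1 in uninduced cells and 2.03% in OB cells. With OB induction 2.12% did in NC and 3.27% in siDNMT1, so none among 4 is near these shares. Its exons differed by -0.00398 between siDNMT1 and NC in uninduced cells and by -0.0315 in OB cells. Its introns read 0.586, 0.562, 0.601 and 0.585, which is -0.0243 uninduced and -0.0163 in OB. Of all exon entries 24.0% differed at least as much as Hdac9 exons in OB cells, and of all intron entries 22.5% at least as much as its introns in uninduced cells. Between siDNMT1 and NC the promoter differed by 0.00824 uninduced and -0.00488 in OB, and the inner island by 0.000895 and -0.0139. The paper reported raised Hdac9 mRNA after DNMT1 depletion, without a detectable methylation change at its promoter or gene body. It also described a single hypomethylated CpG, placed at the promoter in its discussion and in an intron in a supplementary legend. The intron entry averages over a gene of 869516 bases, and single cytosines were not analysed here. Between OB and uninduced cells the exons differed by -0.0429 in NC and -0.0704 in siDNMT1, whereas the introns were higher in OB by 0.0151 and 0.0230.

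OB induction went with lower methylation at most deacetylase entries. In the NC libraries 38 of the 51 entries were lower in OB than in uninduced cells and 13 higher, where 63.4% of all entries were lower. The median difference was -0.0181, against -0.00363 over all entries, neither of them centred. Once each library was centred, the median of the 51 was -0.00477. In the siDNMT1 libraries 46 were lower and 5 higher, where 73.4% of all entries were lower. The median was -0.0132 against -0.00808 over all entries, and once each library was centred the median was -0.000902. These 2 comparisons share no library with each other, although each shares a library with both siRNA comparisons. Both differences were lower at 36 entries, both higher at 3 and opposite at 12, so the signs matched at 76.5% of deacetylase entries and at 64.1% of all entries. Without Hdac5 the share was 78.0%. Pearson's r between the 2 differences was 0.606 across the 51 entries, 0.135 without Hdac5 and 0.300 over all entries, and Spearman's rho was 0.482, 0.383 and 0.366.

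The difference varied with the level of the entry. All 22 entries with a mean level between 0.1 and 0.5 were lower in NC OB than in NC uninduced, with a median difference of -0.0527. Among all entries of that range 68.3% were lower, with a median of -0.0148. Counted once where values were identical, these are 19 entries of 8 genes, and the 12 outside Hdac5 had a median of -0.0428. In the siDNMT1 libraries 21 of the 22 were lower, with a median of -0.0403 against -0.0225 for all entries, and the exception was the Hdac1 shore. Entries at 0.5 or more differed less in NC, with 4 of 10 lower and a median of 0.00242. Of all entries in that range 56.4% were lower in NC, with a median of -0.00319. In siDNMT1 7 of the 10 were lower, with a median of -0.0119. Of all entries in that range 74.6% were lower in siDNMT1, with a median of -0.0161. Hdac11 read 0.298 in NC uninduced and 0.217 in NC OB (-0.0809), but 0.260 and 0.247 in the siDNMT1 libraries (-0.0132). The Hdac3 promoter differed by -0.0801 and -0.0294, and Hdac10 exons by -0.0467 and -0.0230.

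**Figure D3:**
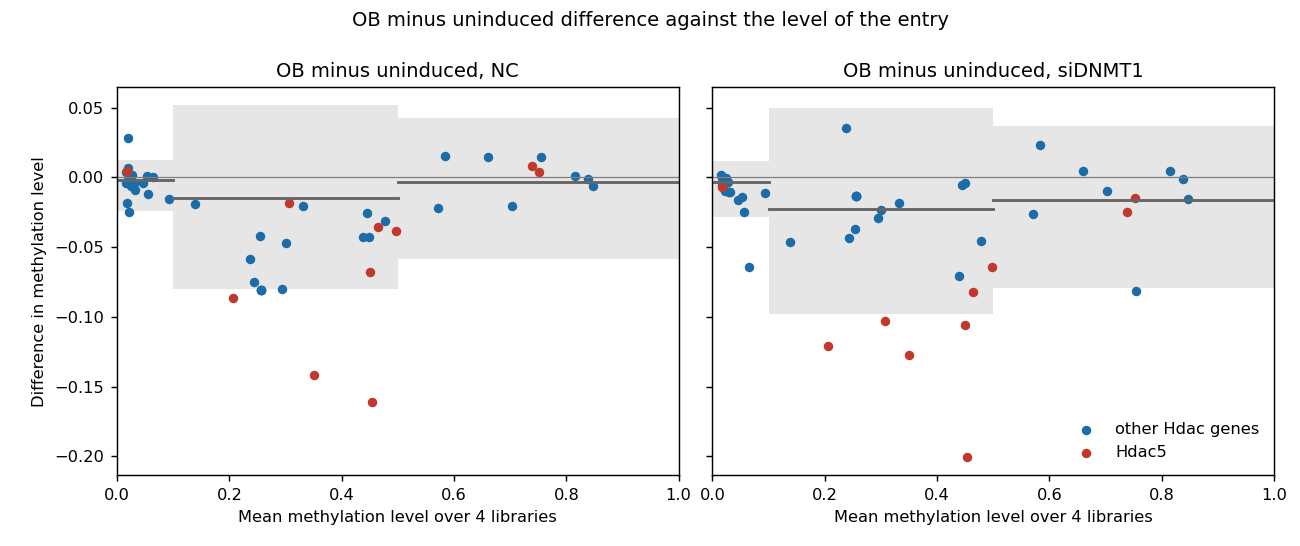
The OB minus uninduced difference in methylation level (y axis) is plotted against the mean level of the entry over the 4 libraries (x axis), for NC on the left and siDNMT1 on the right. Grey boxes span the 5th to 95th percentile of all entries in 3 ranges of level and dark lines their medians. All 22 deacetylase entries between 0.1 and 0.5 lie below 0 in NC, and the lowest points belong to Hdac5 (red).

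The entries that passed 0.1 all belonged to Hdac5 (ENSMUSG00000008855, chr11:102194432-102230166), a class IIa enzyme. In NC cells 2 deacetylase entries fell, against 1.37% of all entries, and none rose. In siDNMT1 cells 5 fell, against 2.41%, and none rose. Since those 5 adjoin or may overlap within 1 gene, they are not separate observations. The shore in the first intron (chr11:102225040-102227040), 3126 to 5126 bases inside the start, read 0.547 in NC uninduced, 0.541 in siDNMT1 uninduced, 0.386 in NC OB and 0.340 in siDNMT1 OB. Both uninduced libraries were well above both OB libraries. It fell by 0.161 in NC and fell by 0.201 in siDNMT1. Of all shores 2.01% fell by at least 0.1 in NC and 3.58% in siDNMT1, and 0.760% and 0.754% differed at least as much as this shore.

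The short island next to it (chr11:102224735-102225039) holds 22 CpG in 305 bases, of which 221 are annotated as UTR in exon 2. It read 0.435, 0.401, 0.293 and 0.274, so the OB libraries were again both below the uninduced ones. It fell by 0.142 in NC and fell by 0.127 in siDNMT1. Of all islands 0.858% fell by at least 0.1 in NC and 1.00% in siDNMT1, and 0.362% and 0.575% differed at least as much. The shore on its other side (chr11:102222734-102224733) read 0.326, 0.348, 0.308 and 0.245, and it fell in siDNMT1 only, by 0.103, with a difference of -0.0186 in NC. With each library centred, the siDNMT1 difference of this shore was -0.0731 and no longer passed 0.1. Whether the 2 differences of this shore differ was not tested.

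The 5′ UTR and introns of Hdac5, which in GENCODE include parts of this stretch, were lower in OB cells too. The 5′ UTR read 0.265, 0.252, 0.178 and 0.131, a difference of -0.0865 in NC and a fall of 0.121 in siDNMT1, where 2.12% of all 5′ UTRs fell. The introns read 0.497, 0.491, 0.429 and 0.385, a difference of -0.0676 in NC and a fall of 0.106 in siDNMT1, where 2.32% of all introns fell. With each library centred the introns differed by -0.0886 and no longer passed 0.1, while the 5′ UTR, at -0.118, still did. The promoter read 0.485, 0.503, 0.449 and 0.422, a difference of -0.0356 in NC and -0.0818 in siDNMT1. The exons read 0.530, 0.515, 0.492 and 0.451, which is -0.0384 and -0.0639. The start island of Hdac5 stayed between 0.0136 and 0.0213, the far shore between 0.746 and 0.760, and the 3′ UTR between 0.721 and 0.748. Among the islands and shores of Hdac5, those that fell in both arms were the inner island and the first-intron shore, 3126 to 5431 bases inside the gene.

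**Figure D4:**
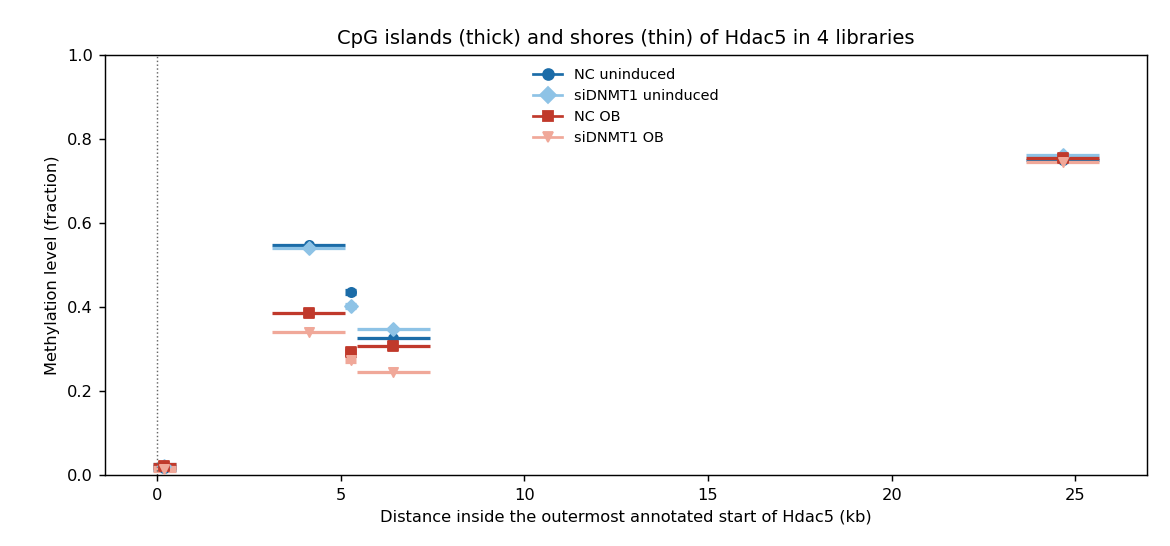
Methylation level (y axis) of the CpG islands (thick lines) and shores (thin lines) of Hdac5 against the distance inside its outermost start in kb (x axis), in 4 colours for the 4 libraries. The start island is near 0 and the far shore near 0.75 in every library, while the first-intron shore separates the uninduced libraries (0.547 and 0.541) from the OB libraries (0.386 and 0.340).

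Among 40 related genes, which are the X-linked deacetylases, sirtuins, corepressor partners, MEF2 factors and acetyltransferases, 166 gene entries had a level in all libraries. In uninduced cells 1 fell and 1 rose with siDNMT1, where 0.848% of all gene entries fell and 0.691% rose. In OB cells 3 fell and none rose, where 1.44% fell and 0.724% rose. The promoter of Mta3, a subunit of NuRD, fell in both, from 0.319 to 0.137 uninduced and from 0.371 to 0.270 in OB. The introns of Kat5, an acetyltransferase, rose by 0.231 uninduced and fell by 0.257 in OB. Their 4 levels, 0.207, 0.438, 0.717 and 0.460, ranged more widely than any deacetylase entry. The promoter of Kat2b, another acetyltransferase, read 0.808 in NC OB and 0.659 in siDNMT1 OB. None of the 14 entries of Mef2a, Mef2c and Mef2d, the partners of class IIa enzymes, passed 0.1 in any of the 4 comparisons. For OB induction 1.32% of all gene entries fell and 0.812% rose in NC, and 2.41% fell and 0.973% rose in siDNMT1, so a count of 0 among 14 is near these shares.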

How the data were processed

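C3H10T1/2 libraries were labelled as reduced representation bisulfite sequencing, although the labels' protocol describes sonicated DNA and names no restriction enzyme. Per the submitters' processing notes, reads were handled with CASAVA, Trimmomatic (version 0.36) and Bismark (version 0.16.3) on mm10. The authors deposited, for each library, the methylated fraction of CpG cytosines per region in 8 classes, with no read counts. Their gene annotation, the coverage minimum of a region and the weighting of its cytosines are not given in the sources used here, so intervals and tests on counts could not be made.

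Differences were taken between libraries over the entries of 7 classes with a level in all 4 libraries, and a change was counted from 0.1. Repeats, which carry no genome position, were not used. With 1 library per condition, no p-value was computed. Island starts, which the files count from 0, were counted from 1, and all 14088 islands checked then start and end with CG in GRCm38. Genes came from GENCODE vM21, with RefSeq as an alternative. Shores and islands can belong to a neighbouring gene too. All entries of the 9 genes were included in the counts. Most have their values given singly, as ranges or as a mean of the libraries. The 5′ UTRs of Hdac1, Hdac2 and Hdac10 appear only in counts and figures. A related gene was named where an entry differed by at least 0.1 between siDNMT1 and NC. The genes and lists were chosen with earlier results of these data known. Alternatives covered the threshold, centring, the entries counted, a minimum level and the gene definition. Functions were tested on simulated data. Calculations used numpy (version 2.4.6) and pandas (version 2.3.3) in Python 3.11.15, with matplotlib (version 3.10.9) for plots.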

Additional observations from a re-analysis of the deposited data

How the results depend on the processing

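No paired analysis was possible because each condition is 1 library. No result changed its direction under an alternative, except 1 median: siDNMT1 minus NC in OB cells became 0.00162 with each library centred on the median of the class. Of 80 values under alternatives, 64 stayed within 1.5 times the reported count or, for medians, within the order-statistic range of the median over entries. That range treats overlapping entries as separate. By it the OB median in NC counts as unmoved, though centring took it from -0.0181 to -0.00477. Some values could not have moved, so the tally does not measure robustness. A siRNA count of 0 cannot rise at 0.2 or in a subset of the entries. The RefSeq bounds, and asking for a level only in the 2 libraries compared, changed no value. At a threshold of 0.05, 2 entries changed with siDNMT1 in uninduced cells, 2 in OB cells, 11 with OB induction in NC and 10 in siDNMT1. At 0.2 the OB counts were 0 and 1, with gene entries alone 0 and 2, and without Hdac5 0 and 0 (an alternative chosen after seeing the data, as was counting identical entries once). Centring left 3 OB changes in siDNMT1 (the Hdac5 introns and the shore downstream of its inner island dropped below 0.1) and a median of -0.000902. Over the entries whose mean level was 0.1 or more, the medians were -0.0102 and -0.0238 for siDNMT1 minus NC uninduced and OB minus uninduced in siDNMT1, and -0.0370 for OB minus uninduced in NC. The planned look at repeats within the genes was not run because repeats carry no positions. Depth is unknown, so how much of a small difference is counting error was not tested.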

Other observations

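The X-linked deacetylases Hdac6, the cytoplasmic enzyme known for acting on tubulin, and Hdac8, which acts on cohesin, went the other way from the autosomal genes on OB induction. Of their 8 gene entries, 6 were higher in NC OB than in NC uninduced, with a median difference of 0.0284. All 8 were higher in siDNMT1 OB than in siDNMT1 uninduced, with a median difference of 0.0571. Among all entries 63.4% and 73.4% were lower in OB in the NC and siDNMT1 comparisons. The 5′ UTR of Hdac8 read 0.336 in NC uninduced, 0.308 in siDNMT1 uninduced, 0.424 in NC OB and 0.386 in siDNMT1 OB, and the 5′ UTR of Hdac6 read 0.298, 0.242, 0.323 and 0.333. With siDNMT1 all 8 were lower in uninduced cells, with a median of -0.0360, where 54.6% of all entries were lower. In OB cells 5 of 8 were lower with siDNMT1, with a median of -0.0211, where 65.7% of all entries were lower. None of them passed 0.1 in any comparison, and whether other X-linked genes did the same was not tested.

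The sirtuins, NAD-dependent deacetylases of another family, had 30 entries. None passed 0.1 in the siRNA comparisons, where 0.848% (uninduced) and 1.44% (OB) of all gene entries fell and 0.691% and 0.724% rose, so a count of 0 is near these shares. Their median difference was -0.00578 with siDNMT1 in uninduced cells and -0.00758 in OB cells, with 22 and 19 entries lower. With OB induction, 0 of the 166 related gene entries fell and 2 rose in NC, and 1 fell and 3 rose in siDNMT1. Of all gene entries 1.32% fell and 0.812% rose in NC, and 2.41% fell and 0.973% rose in siDNMT1. The largest difference was that of the Kat5 introns, which rose by 0.510 in NC and differed by 0.0219 in siDNMT1. The entry that fell was the Kat2b promoter, from 0.813 to 0.659 in siDNMT1, with a difference of -0.0224 in NC. The promoter of Mbd3, a NuRD subunit, rose with OB induction in both arms, from 0.738 to 0.907 in NC and from 0.761 to 0.891 in siDNMT1. The promoters of Mta3 and Kat8 rose in siDNMT1 cells only, by 0.133 and 0.133, with differences of 0.0514 and 0.00755 in NC. Mbd3 and Kat8 were named after their values were seen.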
